A study of Mus musculus with 16 samples.

Results

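Lipid droplet coat and lipolysis genes were examined in the short-read RNA-Seq data of mouse tissues under fed and fasting conditions. The set comprised 10 genes, the perilipins Plin1, Plin2, Plin3, Plin4 and Plin5, the lipases Pnpla2, Lipe and Mgll, the lipase activator Abhd5 and the lipase inhibitor G0s2. They were chosen by name, and each was found by its gene identifier among the 55385 genes of the count table. Male C57BL/6 mice, 12 weeks old when acquired, either fed freely or went without food for 24 h. White and brown adipose, liver, muscle, heart, kidney, lung and spleen were taken. The tissue of all 3 mice in a group was mixed in equal parts, and each mix gave 1 strand-specific library, 16 in all. No value from these libraries therefore has a replicate error, and all 8 tissues come from the same 2 groups of mice. All intervals given with CPM (counts scaled to the library total) and with ratios are exact 95% intervals that cover counting error only.

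Neutral fat is stored in lipid droplets, whose surface is coated by proteins of the perilipin family. Stored triglyceride is broken down in steps, in which Pnpla2 (adipose triglyceride lipase, ATGL) removes the first fatty acid, Lipe (hormone-sensitive lipase) the next and Mgll (monoglyceride lipase) the last. Abhd5 (CGI-58) activates Pnpla2, G0s2 inhibits it, and perilipins on the droplet control access to both. Adipose tissue releases fatty acids in this way during fasting, and liver, heart, muscle and kidney take them up and store or oxidize them.

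The labelled tissues were checked against marker genes. In each tissue with a list of its own, the summed CPM of that list was highest in that tissue under both conditions: 20498 fed and 19130 fasting for 6 adipocyte genes in white adipose, 5775 and 5071 for 5 brown adipocyte genes in brown adipose, and 89604 and 79941 for 4 hepatocyte genes in liver. In 11 cases a list with a sum of at least 20 CPM differed by more than 2 times between the libraries of a tissue. In liver, adipocyte genes summed to 35.4 CPM fed and 142 fasting, of which Cidec made up 5.17 and 102, brown adipocyte genes to 541 and 242, of which Elovl3 made up 537 and 238, and pancreatic acinar genes to 82.7 and 168. In heart, adipocyte genes summed to 374 and 832, of which Fabp4 made up 370.0 and 831, and hepatocyte genes to 22.3 and 78.3. Cardiomyocyte genes in lung had 904 and 447 CPM and B cell genes in white adipose 344 and 80.7. Skeletal muscle genes in brown adipose had 2001 and 942 CPM and stromal genes there 846 and 385, of which Col3a1 made up 602 and 221. Acinar genes had 371 and 11.5 CPM in spleen and 58.3 and 23.0 in kidney, where Cela1 made up 58.1 and 22.8. The part of these lists in the results below was not tested. In bulk tissue, fewer cells of a type and less RNA per cell cannot be told apart. Library totals lay between 14245178 and 36069968 counts, so that 3 counts corresponded to 0.0832 to 0.211 CPM.

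The genes lie on 6 chromosomes of GRCm38. Plin4 at chr17:56100591-56109803 and Plin5 at chr17:56111601-56117596 are neighbours on the minus strand with 1797 bases between them, and Plin3 lies further along the same chromosome at chr17:56277476-56292873. Plin1 (chr7:79720218-79732903, minus strand), Lipe (chr7:25379527-25398710, minus strand) and Pnpla2 (chr7:141455198-141460743, plus strand) share chromosome 7. Plin2 is at chr4:86648386-86670060 (minus strand), Mgll at chr6:88724412-88828360 (plus strand), Abhd5 at chr9:122351608-122381524 (plus strand) and G0s2 at chr1:193272161-193273217 (minus strand). Exons of an antisense gene overlap 15.6% of the exonic length of Lipe (4732471J01Rik), 16% of Abhd5 (A730085K08Rik), 3.29% of Mgll (Gm26588) and 0.268% of Plin4 (Hdgfl2). The strand setting of the counting is not given in the sources used here, so the values of Lipe and Abhd5 may contain counts of these partners.

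Promoter sequence is given for 4 genes, because Pnpla2 and Plin5 were higher under fasting in every tissue, Plin2 was higher in all but muscle, and G0s2 moved in opposite directions between tissues. The sequences are RefSeq promoters of GRCm38.p6, printed 5′ to 3′ on the strand of the gene and limited to the bases before the start site that no exon of the deposited gene covers. They are chr7:141454938-141455187 (plus strand) for Pnpla2, chr17:56117597-56117798 (minus) for Plin5, chr4:86670061-86670309 (minus) for Plin2 and chr1:193273218-193273438 (minus) for G0s2. Capitals mark a match to any of 6 motifs searched on both strands, the FoxO motif TGTTTAC, the nuclear receptor hexamer AGGTCA, the E-box CACGTG, the CRE TGACGTCA, the GC box GGGCGG and the CCAAT box CCAAT, none of which contains another.
Pnpla2: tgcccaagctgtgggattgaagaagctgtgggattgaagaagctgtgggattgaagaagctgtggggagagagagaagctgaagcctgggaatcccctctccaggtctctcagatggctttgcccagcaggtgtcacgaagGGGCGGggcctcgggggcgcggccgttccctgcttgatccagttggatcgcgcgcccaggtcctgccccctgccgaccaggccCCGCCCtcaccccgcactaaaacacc
Plin5: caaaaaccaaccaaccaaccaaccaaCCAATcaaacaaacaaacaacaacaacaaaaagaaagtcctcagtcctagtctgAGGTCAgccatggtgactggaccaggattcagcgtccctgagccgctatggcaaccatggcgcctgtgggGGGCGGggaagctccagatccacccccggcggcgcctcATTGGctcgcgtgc
Plin2: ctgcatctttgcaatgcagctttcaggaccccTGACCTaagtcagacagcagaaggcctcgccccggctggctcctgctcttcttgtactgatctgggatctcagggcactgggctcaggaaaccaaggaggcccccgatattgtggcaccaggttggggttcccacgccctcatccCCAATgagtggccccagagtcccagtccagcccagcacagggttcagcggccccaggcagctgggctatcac
G0s2: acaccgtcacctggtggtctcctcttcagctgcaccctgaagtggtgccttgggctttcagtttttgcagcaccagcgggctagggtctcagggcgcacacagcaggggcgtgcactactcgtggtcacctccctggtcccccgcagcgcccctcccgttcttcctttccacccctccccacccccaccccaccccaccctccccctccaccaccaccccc

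All 10 genes had a promoter in the RefSeq table, and Plin5, Lipe and Mgll had 2 each. In the 250 bases before the start, the nuclear receptor hexamer was present in Plin2, in the first promoter of Plin5 and in Abhd5. It was present in 13.8% of 27025 promoters, the first of each gene in the table, and the other shares have the same base. In Plin5 it lay at -170 to -165 from the start, and in Plin2 at -218 to -213. The FoxO motif was found in promoter 2 of Lipe and promoter 1 of Mgll (3.09% of first promoters), and the E-box in promoter 1 of both (6.05%). The GC box (32.9% of first promoters) was found in Plin3, Plin5, Pnpla2, Lipe, Abhd5, G0s2 and, in promoter 2 only, in Mgll. The CCAAT box (34.5%) was found in Plin2, Plin3, Plin4 and Plin5. No promoter held the CRE (1.62%), and that of Plin1 held none of the 6 motifs. These matches describe letters in a window and are not binding sites.

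To see where the genes are used, their levels were compared across tissues. Plin1 RNA was almost confined to the adipose tissues. White adipose had 2021 CPM fed and 746 fasting, and brown adipose 1259 and 928. The 12 other libraries lay between 0.131 CPM, 2 counts in fasting heart, and 11.5 CPM in fed muscle. Plin4, the perilipin of the adipocyte's small droplets, had its highest values in white adipose with 5418 CPM fed and 5635 fasting, then in brown adipose with 1239 and 1208. Muscle (304 fed, 869.5 fasting) and heart (359 and 729) followed and overlapped. Its lowest values were 2.78 and 5.89 CPM in spleen.

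Other perilipins had other tissues at the top. Plin2, the coat protein of droplets in most cells, was highest in liver with 413 CPM fed and 966 fasting, which overlapped brown adipose with 582 and 607, and lowest in muscle with 26.0 and 18.8. Plin5, known for droplets that lie against mitochondria in oxidative tissue, reached 163 and 202 CPM in brown adipose, 124 and 172 in heart and 29.4 and 135 in liver. Its neighbours in this order overlapped down to lung, and only spleen, with 0.397 and 0.647 CPM from 9 and 18 counts, stood apart. Plin3, which coats nascent droplets, was highest in heart with 198 CPM fed and 359.7 fasting and otherwise ranged from 32.3 CPM in fed spleen to 134 in fed brown adipose.

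**Figure D1:**
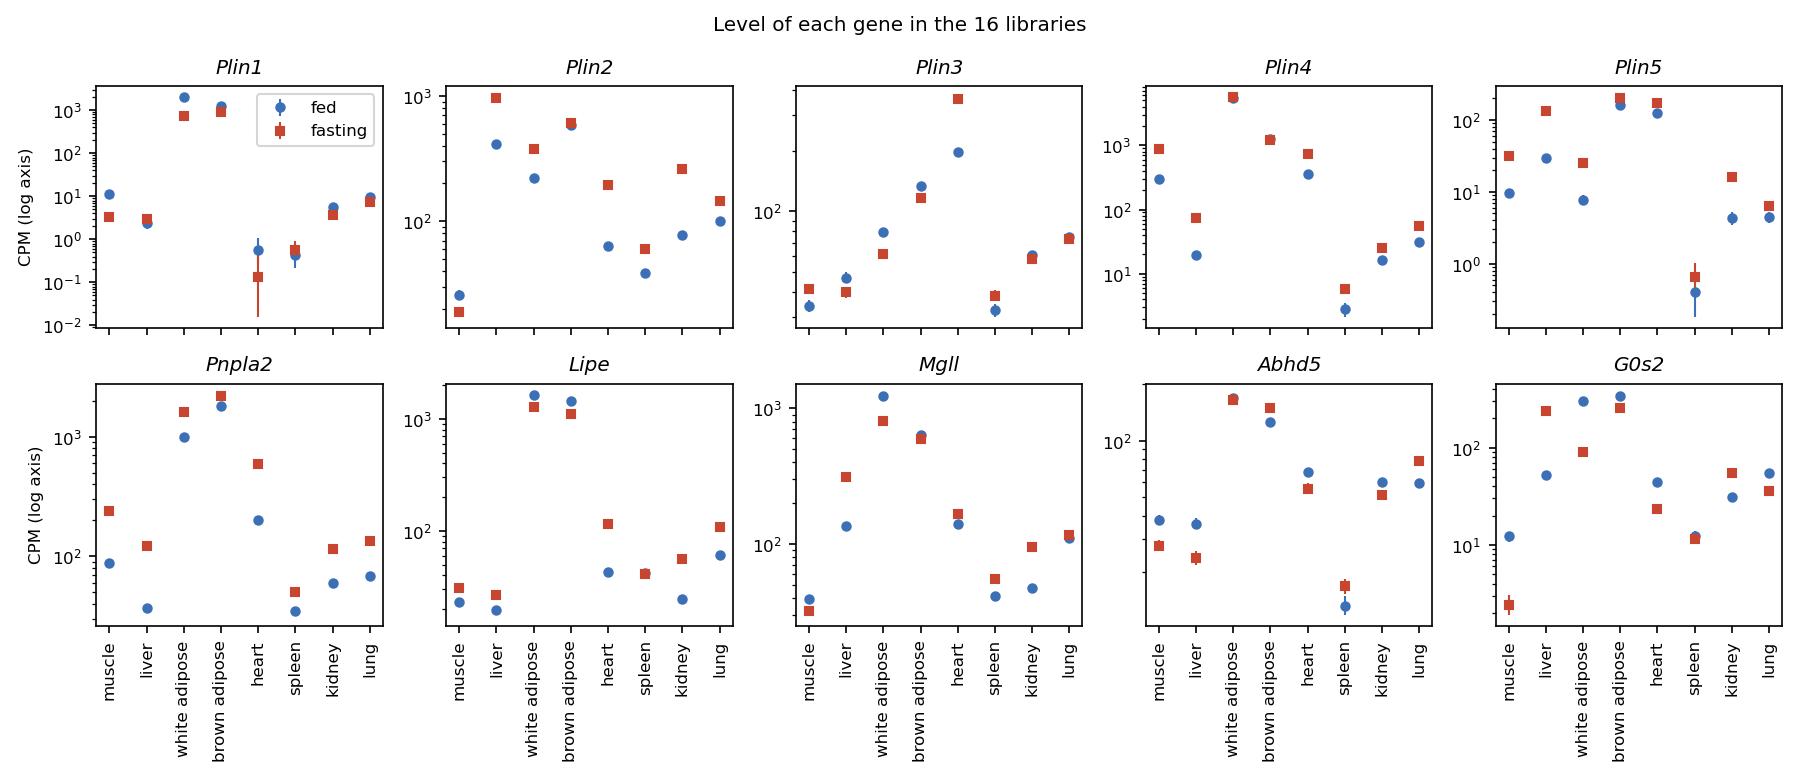
Level of each of the 10 genes in the 16 libraries, in CPM on log axes that differ between panels; circles are fed and squares fasting libraries, and bars are 95% Poisson intervals of the counts. Plin1 stands at 746 CPM or more in the adipose tissues and at 11.5 or less elsewhere, while Pnpla2 and Plin5 have the fasting value above the fed value in all 8 tissues.

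The lipolytic enzymes were also highest in adipose tissue, but were measured in every tissue. Pnpla2 had 1798 CPM fed and 2216 fasting in brown adipose, 993 and 1623 in white adipose and 202 and 597 in heart, and was lowest in spleen with 34.7 and 50.4. Lipe had 1615 and 1283 CPM in white adipose and 1443 and 1111 in brown adipose, which overlapped, and between 19.5 CPM (fed liver) and 116 (fasting heart) elsewhere. Mgll had 1241 and 803 CPM in white adipose, 636 and 593 in brown adipose and 136 and 310.4 in liver. Abhd5 was spread more evenly and ranged from 13.3 CPM in fed spleen to 169 in fed white adipose. G0s2 had 338 and 255 CPM in brown adipose, 302 and 90.6 in white adipose and 52.2 and 235 in liver, and these neighbours overlapped.

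The difference between adipose and other tissues was tested in edgeR by the quasi-likelihood test. In it the fed and the fasting library of a tissue give its spread, with 7 residual degrees of freedom. This spread holds neither the variation between animals nor that among the tissues within each group. Of 23580 genes tested, 21.3% were higher and 19.6% lower in adipose at a Benjamini-Hochberg adjusted p under 0.05 (40.9% in all), and 9 of the 10 genes were higher (median log2 difference 2.75, against -0.06 over all genes tested). The split of calls depended on scaling, with 5026 genes higher and 4624 lower under TMM factors and 8435 and 2115 on library totals alone. The log2 difference was 8.72 ± 0.26 (SE) for Plin1, 5.24 ± 0.24 for Plin4, 4.73 ± 0.23 for Lipe and 3.66 ± 0.18 for Pnpla2 in this edgeR test (adjusted p = 1.62e-09, 3.06e-08, 5.10e-08 and 6.07e-08). It was 2.89 for Mgll, 2.62 for G0s2, 1.72 for Plin5, 1.65 for Plin2 and 1.65 for Abhd5. Plin3 was the exception with 0.24 ± 0.15 (adjusted p = 0.227 in the same test). It was called in 3 of 12 alternatives: on library totals alone (0.55), without heart (0.67) and without white adipose (0.81). The call of Plin5 rested on brown adipose, without which its difference was -0.37, and was also lost without spleen at 0.63. The difference of Plin3 moved between -0.37 without brown adipose and 0.81 without white adipose.

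Likeness of pattern was measured as Pearson's r of log2(CPM + 1) over the 16 libraries, which share tissues and mice, and is a description only. Among the 10 genes, Plin1 and Lipe (0.903), Plin4 and Pnpla2 (0.897), Pnpla2 and Lipe (0.895) and Mgll and G0s2 (0.890) were most alike, and Plin1 and Plin3 (0.150) least. Of 20858 genes with at least 1 CPM in 2 or more libraries, those nearest to Plin1 were Adipoq (0.994), Ankef1 (0.989) and Acvr1c (0.988). Nearest to Pnpla2 were Fabp4 (0.967), Gm10010 (0.948) and Ebf2 (0.930), and to Lipe Trarg1 (0.979), Rasd1 (0.976) and Sik2 (0.967). Plin5 stood apart from these adipocyte patterns. Its nearest genes, Eci1 (0.927), Slc25a20 (0.921) and Acadvl (0.919), encode proteins of mitochondrial fatty acid oxidation. For Plin4 they were Timp4 (0.963), Pla2g12a (0.940) and Eif4ebp1 (0.938), and for G0s2 Agpat2 (0.926), Tspan12 (0.917) and Gm10644 (0.905). Plin2 had Rab9 (0.919), Cbr1 (0.917) and Chp1 (0.910), and Plin3 had Slmap (0.932), Ppp1r13l (0.925) and 2610306O10Rik (0.913). Abhd5 was followed by Negr1 (0.937), Copz2 (0.932) and Aplp2 (0.928), and Mgll by the unnamed genes Gm44001 (0.941), Gm10614 (0.931) and Gm43999 (0.930).

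Because the perilipins share a role, their make-up was compared on a scale per length (RPKM, which is CPM divided by exonic length in kilobases), which allows levels of different genes to be set side by side. The 5 perilipins summed to 1375 RPKM in fed white adipose and to 20.3 in fed spleen. In white adipose, Plin4 made up 62.0% of the sum fed and 75.0% fasting, and Plin1 31.6% and 13.6%. In brown adipose the 3 largest parts lay closer together, with Plin1 at 36.3% fed and 28.9% fasting, Plin4 at 26.2% and 27.6%, and Plin2 at 22.2% and 25.1%. These 2 adipose tissues thus differed in their coat genes as well as in the total.

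Muscle was dominated by Plin4 with 67.2% fed and 81.0% fasting, and liver by Plin2 with 79.6% and 75.8%. In heart, Plin3 (28.1%), Plin4 (30.3%) and Plin5 (31.8%) were nearly equal in the fed library, whereas the fasting library had 27.4%, 33.0% and 23.7%. In liver the share of Plin5 was 9.55% fed and 17.9% fasting and that of Plin3 8.39% and 2.89%. In kidney, Plin2 made up 50.4% fed and 72.9% fasting while Plin3 made up 36.4% and 15.0%. Spleen and lung had Plin2 first and Plin3 next under both conditions.

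**Figure D2:**
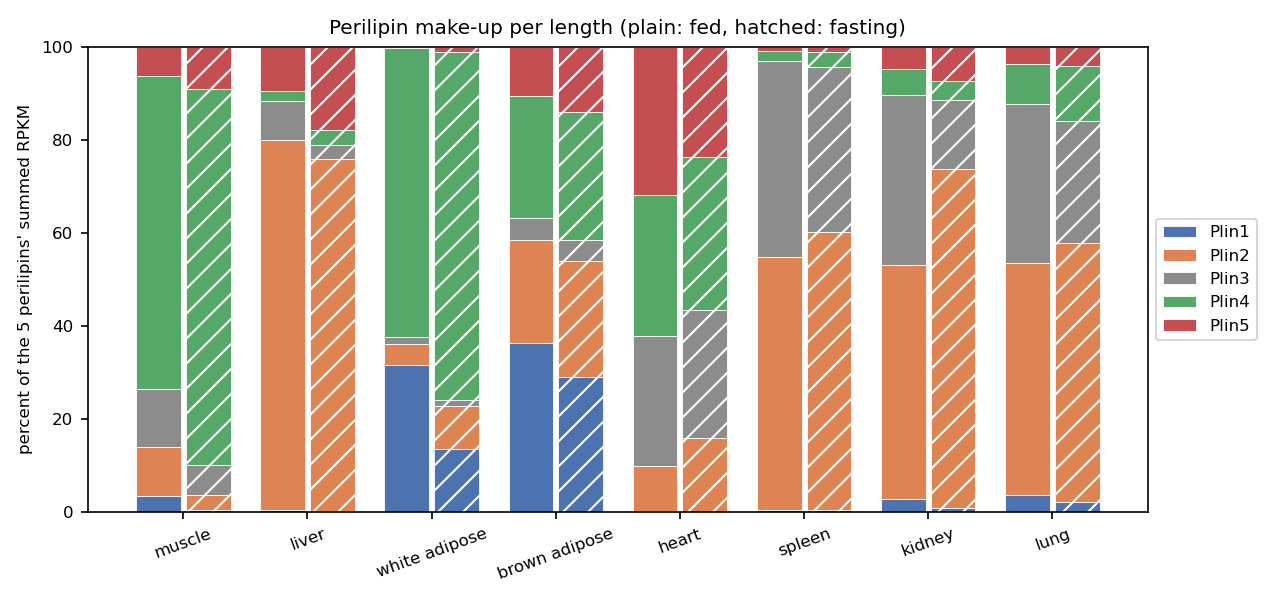
Share of each perilipin in the summed RPKM of the 5 perilipins, in percent, for the fed (plain bar) and fasting (hatched bar) library of each tissue. Plin4 fills most of the muscle and white adipose bars and Plin2 most of the liver bars, and the Plin2 part of kidney is 50.4% fed and 72.9% fasting.

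Fasting was compared with feeding in each tissue by the study's own rule, a log2 fold change above 0.5 in size, with a pseudocount of 0.01 CPM, and an unadjusted p under 0.01 when the counts of the 2 libraries are set against each other by a two-sided Fisher's exact test. With 1 library per condition this compares 2 libraries and not the conditions, and no p is given. Of 80 values (10 genes in 8 tissues), 32 passed as higher and 9 as lower under fasting. In kidney 7 genes rose and 1 fell, against 2.77% and 3.93% of all genes tested there. The 5 brown adipocyte markers in kidney were all higher under fasting and summed to 1.96 CPM fed and 8.88 fasting. The 6 adipocyte markers there summed to 85.6 and 133 CPM, with 4 higher and 2 lower. Their part in the kidney values was not tested. In liver 6 rose and 1 fell (background 4.46% and 9.52%), where Cidec alone of the 6 adipocyte markers was called and Adipoq had 3.56 and 4.09 CPM. In heart 5 rose and 1 fell (4.33% and 5.80%). In lung 5 rose and 1 fell (2.68% and 6.49%), beside cardiomyocyte markers of which 4 of 4 were lower under fasting. The 6 adipocyte markers in lung summed to 109 CPM fed and 186 fasting, with 4 higher and 2 lower. Their part in the lung values was not tested. In spleen 3 rose and none fell (2.31% and 1.62%), beside adipocyte markers that summed to 9.89 and 18.3 CPM, with 3 higher and 3 lower. In muscle 3 rose and 2 fell (4.42% and 9.39%), and in white adipose 3 rose and 3 fell (13.2% and 5.84%). Brown adipose had 0 calls by this rule in either direction (5.39% and 7.58%), also with TMM factors or DESeq2 size factors, although the counting interval of all 10 ratios excluded 1; the value furthest from 0 there was -0.44 on the log2 scale, for Plin1.

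The backgrounds include weakly expressed genes, which the counts can call less often. Among genes with at least 1 CPM in either library they were 4.48% and 6.23% in kidney, 7.34% and 15.8% in liver, 7.80% and 16.4% in muscle, 7.01% and 9.65% in heart, 4.23% and 10.1% in lung, 3.62% and 2.33% in spleen, 8.68% and 12.2% in brown adipose and 19.8% and 9.23% in white adipose. Over the 10 genes the median log2 fold change was 1.21 in liver, against -0.11 over all genes tested, 0.88 in kidney (-0.07), 0.67 in heart (-0.06), 0.44 in lung (-0.10) and 0.39 in spleen (-0.01). It was -0.02 in muscle (-0.16), -0.07 in brown adipose (-0.04) and -0.19 in white adipose (0.12). Scaling by TMM moved all genes by 0.13 in liver and by -0.12 in white adipose on the log2 scale.

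**Figure D3:**
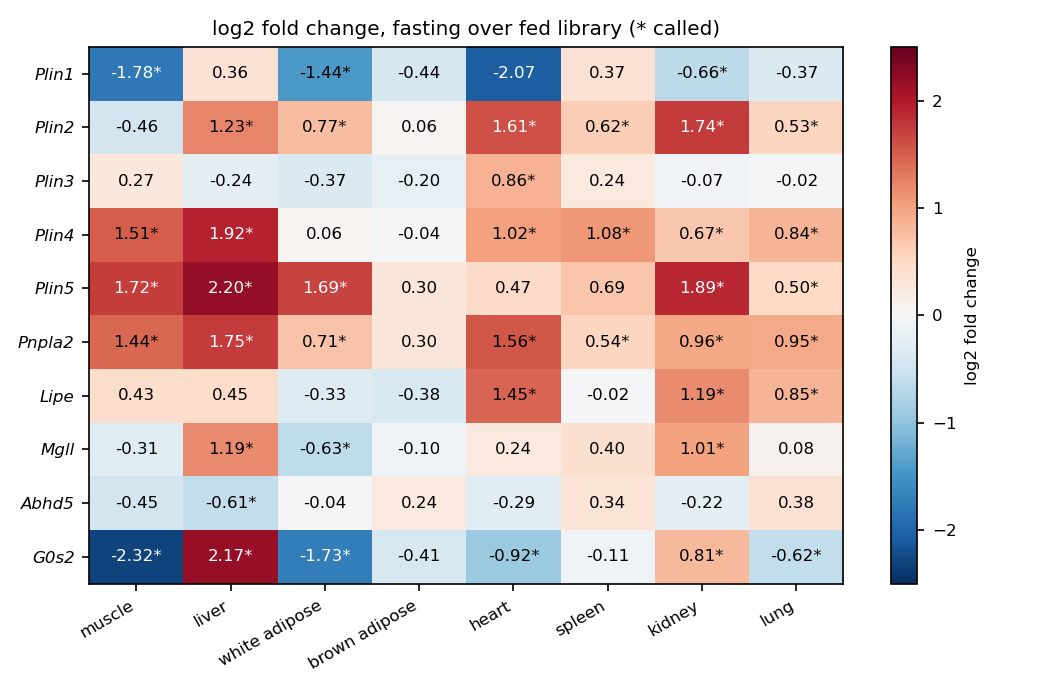
Log2 fold change of fasting over fed CPM (colour and number) for each of the 10 genes in each tissue; an asterisk marks a change past 0.5 in size with Fisher's exact p under 0.01 between the 2 libraries. The Pnpla2 and Plin5 lines are above 0 throughout, the brown adipose column has no asterisk, and G0s2 runs from -2.32 in muscle to 2.17 in liver.

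Pnpla2, the first lipase of the cascade, was higher under fasting in all 8 tissues and passed the rule in 7. It rose from 36.8 to 123 CPM in liver (ratio 3.36, interval 3.11 to 3.63), from 202 to 597 in heart (2.95, 2.84 to 3.07) and from 87.9 to 239 in muscle (2.72, 2.59 to 2.85). It also rose from 59.2 to 115 CPM in kidney, from 68.6 to 133 in lung, from 993 to 1623 in white adipose and from 34.7 to 50.4 in spleen. Brown adipose, where the level was highest, had the smallest ratio at 1.23. Fed and fasting levels of different tissues overlapped for this gene, so that fasting liver (123 CPM) lay above fed muscle (87.9 CPM).

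Plin5 was the other gene with higher fasting values in all 8 tissues, although in spleen the 9 and 18 counts gave a ratio of 1.63 with an interval of 0.694 to 4.11, so that no difference was detectable there at this depth. It rose from 29.4 to 135 CPM in liver (ratio 4.6, 4.2 to 5.0), from 4.28 to 15.9 in kidney (3.71, 2.96 to 4.68), from 9.59 to 31.6 in muscle (3.29, 2.85 to 3.82) and from 7.69 to 24.8 in white adipose (3.23, 2.74 to 3.83). In lung it rose from 4.42 to 6.27 CPM, with a log2 fold change of 0.50 that no longer passed with a pseudocount of 1 CPM. The tissues where it was most abundant changed little, with ratios of 1.24 in brown adipose and 1.39 in heart, and the 0.47 on the log2 scale in heart passed the rule only under TMM (0.53) or DESeq2 scaling (0.52).

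Plin4 rose in 6 tissues, and its values in the adipose tissues, the highest of all, hardly differed. The ratio was 3.77 (3.40 to 4.19) in liver, 2.86 (2.78 to 2.93) in muscle, 2.12 (1.58 to 2.88) in spleen, 2.03 (1.97 to 2.09) in heart, 1.79 in lung and 1.59 in kidney, against 1.04 in white adipose and 0.975 in brown adipose. The 6 adipocyte markers summed to 9.89 CPM fed and 18.3 fasting in spleen (3 higher), 109 and 186 in lung (4 higher) and 85.6 and 133 in kidney (4 higher). They summed to 35.4 and 142 in liver (6 higher), 374 and 832 in heart (1 higher) and 201 and 179 in muscle (1 higher). Their part in the Plin4 values was not tested. Plin2 also rose in 6 tissues. Its ratio was 3.35 (3.18 to 3.54) in kidney, 3.05 (2.84 to 3.27) in heart, 2.34 (2.29 to 2.40) in liver, 1.71 in white adipose, 1.54 in spleen and 1.44 in lung. Brown adipose stayed at 582 and 607 CPM. Muscle went the other way, from 26.0 to 18.8 CPM (ratio 0.725, 0.646 to 0.813), and did not pass the rule at -0.46 on the log2 scale.

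Plin1, the adipocyte perilipin that holds back lipolysis in the fed state, fell in 3 tissues. It fell from 2021 to 746 CPM in white adipose (ratio 0.369, 0.363 to 0.375), from 11.5 to 3.33 in muscle (0.290, 0.229 to 0.365) and from 5.70 to 3.61 in kidney (0.633, 0.479 to 0.833). Brown adipose had a ratio of 0.737 and did not pass. In heart the 10 fed and 2 fasting counts gave a ratio of 0.226 with an interval of 0.0240 to 1.06, so that no difference was detectable at this depth.

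Adipocyte markers were read beside Plin1, since it is an adipocyte gene. In white adipose the 6 adipocyte markers summed to 20498 CPM fed and 19130 fasting, Adipoq (adiponectin) had 2506 and 2247 CPM and Fabp4 5635 and 6208, while Retn (resistin) and Lep (leptin) fell to ratios of 0.57 and 0.23. Of the 6 markers, 2 were higher and 4 lower there, and their part in the white adipose value of Plin1 was not tested. In muscle Adipoq fell from 16.1 to 6.79 CPM, Cfd (adipsin) from 56.4 to 28.5 and Retn from 3.28 to 1.10, and 5 of the 6 markers were lower in the fasting library, with none at 0. Their part in the muscle value of Plin1 was not tested. In kidney the 6 markers summed to 85.6 CPM fed and 133 fasting, and 4 of them were higher.

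Plin3 rose in 1 tissue only, from 198 to 359.7 CPM in heart (ratio 1.81, 1.74 to 1.89), and its other ratios lay between 0.772 in white adipose and 1.21 in muscle. Lipe rose in heart from 42.7 to 116 CPM (ratio 2.7, 2.5 to 3.0), in kidney from 24.7 to 56.4 (2.28) and in lung from 60.6 to 109 (1.80). In the adipose tissues, where most of its RNA was found, its ratios were 0.794 and 0.770 and did not pass the rule. Under TMM factors Lipe also passed in muscle and liver, at 0.51 and 0.58 on the log2 scale. Mgll rose in liver from 136 to 310.4 CPM (2.29) and in kidney, where it had 47.2 CPM fed (2.01), and fell in white adipose from 1241 to 803 (0.647, 0.636 to 0.658).

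Abhd5, the activator of Pnpla2, passed the rule only in liver, where it fell from 36.3 to 23.8 CPM (ratio 0.656, 0.590 to 0.730), a call that was lost under TMM or DESeq2 scaling (-0.48 on the log2 scale). Elsewhere its ratios lay between 0.732 in muscle and 1.30 in lung.

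G0s2, the inhibitor of Pnpla2, changed in opposite directions. It fell from 12.2 to 2.42 CPM in muscle (ratio 0.199, 0.152 to 0.258), from 302 to 90.6 in white adipose (0.300, 0.287 to 0.315), from 43.7 to 23.1 in heart (0.530, 0.465 to 0.602) and from 54.8 to 35.7 in lung (0.650, 0.604 to 0.700). It rose from 52.2 to 235 CPM in liver (4.51, 4.24 to 4.80) and from 31.1 to 54.3 in kidney (1.75, 1.6 to 1.9). Brown adipose and spleen had ratios of 0.752 and 0.927 and did not pass. The muscle value stands beside the adipocyte markers there, of which 5 of 6 were lower in the fasting library, and in heart 4 of 6 were lower, with Lep at 0. Their part in these values, and in the ratio of Pnpla2 to G0s2, was not tested.

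The ratio of Pnpla2 to G0s2 per length was taken within each library, where scaling between libraries cancels. In muscle it was 2.08 fed and 28.4 fasting, in heart 1.33 and 7.44, in white adipose 0.949 and 5.17, and in lung 0.361 and 1.07. The log2 change was 3.77, 2.48, 2.44 and 1.57 in these tissues, with counting errors of 0.19, 0.10, 0.04 and 0.07. Brown adipose went from 1.53 to 2.51 and spleen from 0.811 to 1.27. Kidney, at 0.550 and 0.613, changed by 0.16 with a counting error of 0.08. Liver was the exception, with 0.203 fed and 0.151 fasting, a log2 change of -0.43 with a counting error of 0.07. In liver the lipase and its inhibitor both rose, as they also did in kidney, and the liver ratio was the lowest of the 8 tissues under both conditions.

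**Figure D4:**
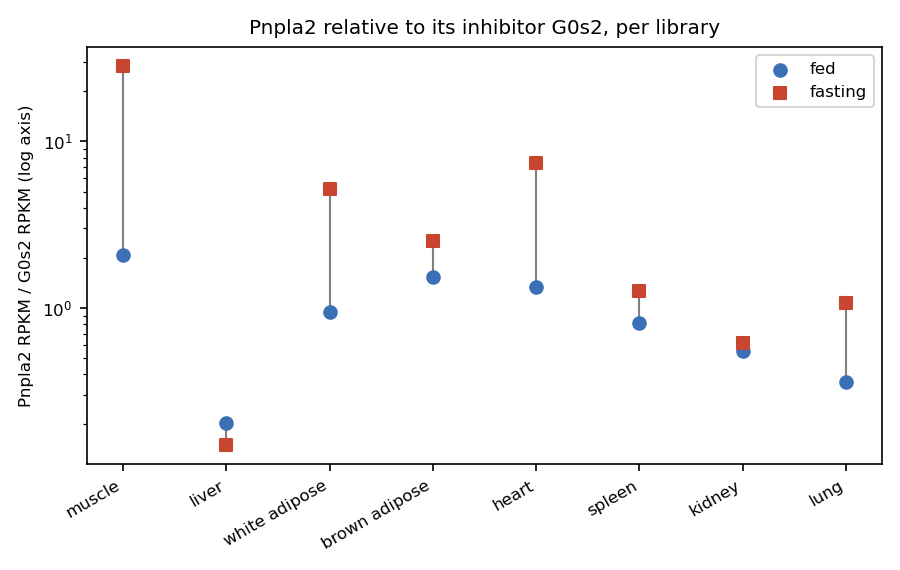
Ratio of Pnpla2 to G0s2 RPKM within each library on a log axis; circles are fed and squares fasting libraries, joined for each tissue. The fasting ratio lies above the fed ratio in 7 tissues, most in muscle (2.08 and 28.4), and below it in liver (0.203 and 0.151).

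The ratio of Pnpla2 to its activator Abhd5 per length was higher under fasting in all 8 tissues, from 2.0 to 10.2 in liver, 4.58 to 17.0 in muscle and 5.86 to 21.2 in heart. It hardly differed in brown adipose, at 28.0 and 29.3. Pnpla2 relative to Lipe increased in liver (3.67 fed, 9.02 fasting), muscle (7.48 and 15.1) and white adipose (1.20 and 2.47), as well as in brown adipose (2.43 and 3.89) and spleen (1.61 and 2.38). It was nearly level in heart (9.2 and 10) and lung (2.2 and 2.4), where both lipases rose. Kidney went the other way, from 4.67 to 3.98, a log2 change of -0.23 with a counting error of 0.09.

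To find genes with a common direction across tissues, all 16 libraries were fitted with tissue as a block and treatment as the effect (edgeR's quasi-likelihood test, 17296 genes, 7 residual degrees of freedom). Under this test 2.31% of genes were higher and 2.08% lower, 4.39% together, at an adjusted p under 0.05. Of the 10 genes, 3 rose and 0 fell, also in DESeq2, where 4 rose (median log2 fold change 0.38, against -0.01 over all genes tested). Pnpla2 rose by 1.07 ± 0.18 (SE, adjusted p = 0.0154, higher in 8 of 8 tissues), Plin5 by 1.26 ± 0.24 (adjusted p = 0.0241, 8 of 8) and Plin4 by 0.92 ± 0.23 (adjusted p = 0.0494, 7 of 8) in this edgeR test. Plin2 had 0.81 ± 0.23 (edgeR adjusted p = 0.0704, 7 of 8), Lipe 0.49 ± 0.22 (0.204, 5 of 8) and Plin1 -0.69 ± 0.25 (0.128, 2 of 8), the 1 gene below 0 with an unadjusted p under 0.05. For G0s2 the value was -0.36 ± 0.43 (edgeR adjusted p = 0.654), since its tissues went both ways. Mgll, Plin3 and Abhd5 lay at 0.27, 0.10 and -0.04.

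Pnpla2 passed when any 1 tissue was left out, whereas Plin5 did not pass without muscle or without kidney (edgeR adjusted p = 0.0699 and 0.0520), and Plin4 passed only without white adipose among the 8 cases, with an edgeR adjusted p of 0.0602 to 0.116 in the others. The call of Plin4 was also lost with robust dispersion (adjusted p = 0.0516). On library totals alone the split of all calls was 313 higher and 638 lower, in place of 400 and 359, and the same 3 genes passed. An exact sign-flip permutation test (two-sided) over the 8 tissue values gave p = 0.00781 for Pnpla2 and for Plin5, the smallest it can give, 0.0156 for Plin4, 0.0234 for Plin2 and 0.0625 for Plin1. The tissues are not independent animals, and a shared feature of either group of 3 mice cannot be told apart from fasting.

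**Figure D5:**
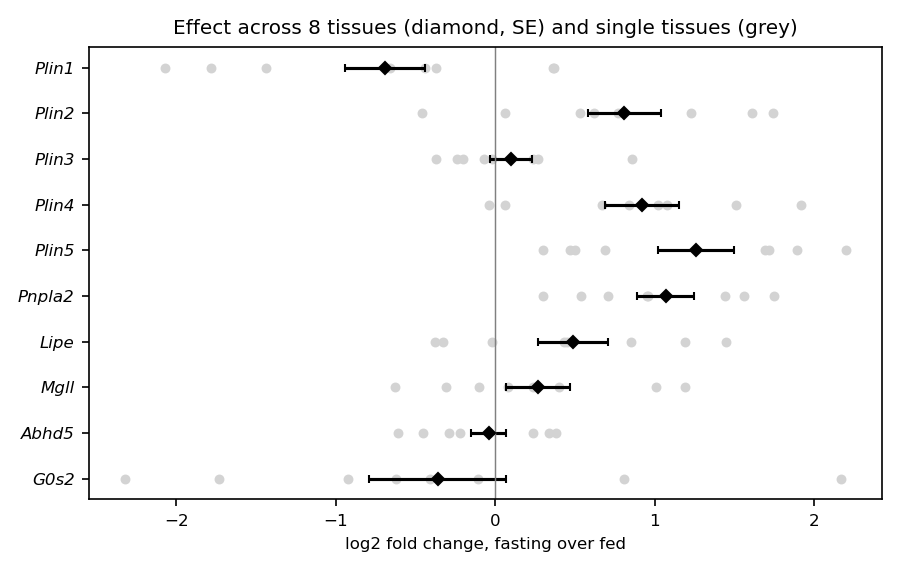
Log2 fold change of fasting over fed for the 10 genes: grey points are the 8 tissues, and the black diamond with its bar is the effect across tissues with its standard error from edgeR. Pnpla2 and Plin5 have all 8 points above 0, and G0s2 has the widest spread, from -2.32 to 2.17.

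The fasting effect was then compared between adipose and the other 6 tissues as an interaction in the edgeR model, with 6 residual degrees of freedom. Among 17296 genes, 0.543% had a higher effect in adipose and 0.225% a lower one, 0.769% together or 94 and 39 genes (95 and 20 on library totals alone). None of the 10 genes passed edgeR's quasi-likelihood test, while 5 had an unadjusted p under 0.05 and DESeq2's Wald test called 2 (Plin4 and Lipe). The median difference was -0.70 over the 10 genes, against -0.01 over all genes tested. Single differences were -1.28 ± 0.33 for Plin4 (edgeR adjusted p = 0.135) and -1.19 ± 0.34 for Lipe (edgeR adjusted p = 0.178). These were followed by -1.07 ± 0.91 for G0s2, -0.91 ± 0.38 for Mgll and -0.81 ± 0.32 for Pnpla2. With 1 tissue left out, G0s2 lay between -1.80 (without brown adipose) and -0.35 (without white adipose), with -0.61 without liver, and Mgll between -1.24 and -0.59 in the same adipose cases. For Plin4 the values behind it were 0.06 and -0.04 in white and brown adipose against 0.67 to 1.92 in the other tissues. For Lipe they were -0.33 and -0.38 against -0.02 to 1.45.

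Other genes of lipid droplets and lipolysis were read from 4 lists. None of 14 other droplet proteins and none of 6 other neutral lipases passed edgeR's test across tissues, which called 4.39% of all genes tested, while 4 and 1 had an unadjusted p under 0.05 and DESeq2 called 3 and 1. Of 15 genes that control lipolysis or handle its products, 1 passed, Fabp4, a fatty acid carrier, at 0.69 ± 0.16 (edgeR adjusted p = 0.0387), and of 10 triglyceride synthesis genes tested 1 passed, Lpin2, a phosphatidate phosphatase, at 0.85 ± 0.19 (edgeR adjusted p = 0.0387). Both were higher, and edgeR called no gene of the 4 lists lower, where 1 lipase and 4 genes that control lipolysis had an unadjusted p under 0.05 and DESeq2 called 1 of each. The medians were 0.26, 0.16, -0.24 and 0.17 for the lists in this order, against -0.01 over all genes.

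Single tissues showed larger changes in these lists. Cidec, which fuses droplets into larger ones, rose from 5.17 to 102 CPM in liver and from 705 to 1528 in brown adipose, and had 2285 and 3111 CPM in white adipose. Cav1 (caveolin) fell in white adipose from 3238 to 999 CPM and in brown adipose from 974 to 669.6. Dgat2, which makes triglyceride from diacylglycerol, fell in white adipose from 2114 to 167 CPM and had 1842 and 1919 in brown adipose, where no change passed. Lpin1 rose in muscle from 470.4 to 1033 CPM, and in liver, white adipose and lung, and fell in heart from 368 to 234. Ces1d, a carboxylesterase, had 1419 and 1848 CPM in brown adipose and rose in white adipose from 1157 to 1670, in kidney from 346 to 497 and in lung, and fell in muscle from 33.3 to 21.5 and in liver. Ddhd2, a lipase of the same list, had 271 and 345 CPM in brown adipose and rose in liver from 30.2 to 53.9. Cidea was highest in brown adipose at 1838 and 1882 CPM, and Prkar2b, a regulatory subunit of protein kinase A, had 1821 and 1616 CPM there and fell in white adipose from 544 to 361. Pde3b, the phosphodiesterase through which insulin restrains lipolysis, rose in brown adipose from 629 to 1123 CPM and had 605 and 758 in white adipose.

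Of the 6 other lipases and of the synthesis genes, 1 each passed the test of the difference between adipose and other tissues, against 0.769% of all genes tested. It was above 0 for Aadac (3.91 ± 0.62, edgeR adjusted p = 0.0274), which had 0.773 CPM fed and 14.9 fasting in white adipose and 7 and 14 counts in brown adipose (ratio 2.33, 0.881 to 6.83, not called), and fell in liver from 496 to 258. It was below 0 for Agpat2, an acyltransferase of triglyceride synthesis (-1.56 ± 0.25, edgeR adjusted p = 0.0272), which fell in white adipose from 334 to 85.5 CPM and in brown adipose from 921 to 370.1.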

How the data were processed

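Strand-specific libraries were sequenced as paired reads of 100 bp. Per the study's methods and the submitters' processing notes, the authors used fastp 0.23.2 for trimming, FastQC 0.11.8 for quality, HISAT2 2.2.1.0 for alignment to GRCm38 and featureCounts of Subread 2.0 for assignment to GENCODE mouse release 24. The authors deposited raw counts per gene and library, without normalization, beside gene lengths. The unit of counting (read or pair) and its strand setting are not given in the sources used here. All 16 count columns were used and 0 were left aside.

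Symbols came from a GENCODE name table of the same build, matched without version (55144 of 55385 genes). The 10 genes, the lists and the tests were chosen with earlier results of these data known. The text names these 10, the list genes called across tissues and the 3 of highest CPM per list, and the 3 genes most like each of the 10; list genes named outside this rule stand in the closing section and were chosen after their values were seen. List genes named for the adipose comparison, Aadac and Agpat2, are also among those of highest CPM. Marker genes are named where their list moved with a result.

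Counts were divided by library totals to give CPM, and by gene length to give RPKM. Within tissues the study's rule was applied to every gene with a count. Across tissues, models were fitted with edgeR 4.0.16 in R 4.3.3 (TMM, filterByExpr, quasi-likelihood test, Benjamini-Hochberg adjustment over all genes tested), with genes filtered by treatment for the fasting effects and by tissue for levels. Intervals of CPM are exact Poisson, and those of ratios exact binomial. The steps were tested on simulated data with known changes. Alternatives covered scaling, pseudocount, filters, thresholds, DESeq2 1.42.0, an assumed variation between pooled libraries, and each tissue left out in turn. Filtering the fasting effects by tissue was added after seeing the data. Tables and figures were made with pandas 2.3.3, numpy 2.4.6, scipy 1.17.1 and matplotlib 3.10.9 under Python 3.11.15.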

Additional observations from a re-analysis of the deposited data

How the results depend on the processing

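Each tissue and condition has 1 library, so variation between animals was not measured, and counting intervals understate the error of every ratio. The fed and the fasting library of a tissue were paired by the tissue block, and the labels give no replicate numbers to pair by. Within tissues 41 calls were made (32 higher, 9 lower). The counts were 35 higher and 8 lower with TMM factors or DESeq2 size factors, 31 and 9 with a pseudocount of 1 CPM, and 32 and 9 with an adjusted p or without the 10 highest genes. With a log2 fold change above 1, 23 were made (19 and 4). When variation between pooled libraries was assumed at a coefficient of 0.2 in edgeR's exact test, 20 were made (16 and 4), and at 0.4 only 1 (0 higher, 1 lower), the fall of G0s2 in muscle.

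Across tissues, 3 of the 10 genes were called higher, and 1 to 3 when a tissue was left out (1 without muscle and 1 without kidney). DESeq2 called 4, adding Plin2 (0.80, adjusted p = 0.0126, range 0.0126 to 1 over its alternatives). Without the tissue block 0 were called (0 genes higher and 1 lower among all), with G0s2 at 0.06, Mgll at -0.01 and Lipe at -0.25, all reversed in sign. Plin4 was called in 5 of 15 alternatives, Plin5 in 11 and Pnpla2 in 14. Without both adipose tissues Plin5 missed the threshold (adjusted p = 0.0502). Filtering by tissue left Plin4 uncalled (adjusted p = 0.0628). With a tissue left out, Abhd5 lay between -0.11 and 0.02 (without liver) and Plin3 between -0.02 (without heart) and 0.18. Over all genes, DESeq2 called 844 higher and 988 lower in place of 400 and 359, filtering by tissue 244 and 198, and leaving out muscle, brown adipose, heart or lung 104 to 144 and 52 to 93.

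In adipose against other tissues, 9 genes were called, and 8 to 10 when a tissue was left out. Plin5 lay between -0.37 without brown adipose and 3.74 without white adipose, and Plin3 between -0.37 and 0.81 in the same cases, with -0.08 without spleen. For the difference of the fasting effect, DESeq2 and the fit without a filter each called 2 below 0, Plin4 and Lipe, in place of 0, and 0 were called when any tissue was left out. Plin1 lay between -0.99 and 0.13 (without white adipose), Abhd5 between -0.07 (without brown adipose) and 0.33, and Plin5 between -1.09 and 0.17 (without brown adipose), none of them called. Over all genes this comparison gave 94 above and 39 below 0, but 708 and 198 without a filter, 670 and 146 without brown adipose and 1 and 2 without white adipose. The causes were not tested.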

Other observations

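Receptors that control lipolysis also differed between the paired libraries. They were chosen after their values were seen. Adrb3, the beta-adrenergic receptor of adipocytes, fell in brown adipose from 249.8 to 82.8 CPM and had 787 and 615 in white adipose. Adrb1 fell in brown adipose from 47 to 14 CPM. Among receptors that restrain lipolysis, both adipose tissues had falls of Ptger3, a prostaglandin receptor, from 60.1 to 30.5 CPM in white and from 138 to 43.3 in brown adipose, and of Hcar1, the lactate receptor, from 63.3 to 34.0 and from 58.9 to 7.37. Adora1, an adenosine receptor of the same kind, had 70.2 and 68.0 CPM in white and 184 and 209 in brown adipose. Across tissues Ptger3 had a log2 fold change of -0.79 ± 0.21 (edgeR adjusted p = 0.0582) and was not called.

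Pnpla3, a relative of Pnpla2, fell in both adipose tissues. It fell from 332 to 14.2 CPM in white adipose and from 217 to 58.2 in brown adipose, where Pnpla2 had 1798 and 2216 CPM. It also fell in muscle from 3.86 to 1.20 CPM and in heart from 2.21 to 0.131. In the same libraries the adipocyte marker Adipoq had 16.1 and 6.79 CPM in muscle and 15 and 4 counts in heart, and Cfd 56.4 and 28.5 CPM and 37 and 6 counts, and their part in these falls was not tested. Across tissues its log2 fold change was -1.95 ± 0.54 (edgeR adjusted p = 0.0664) and was not called. Pnpla3 too was chosen after its values were seen.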
